A study of Sus scrofa with 6 samples.

Results

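The genes APOB, APOC3, APOE, APOA2 and APOH encode apolipoproteins, the protein part of the particles that carry lipid in blood. They were chosen by gene symbol among the 25322 pig gene IDs of the count tables, of which 11804 carried a symbol. A row was found for 4 of the 5 genes: APOB (ENSSSCG00000008595), APOC3 (ENSSSCG00000015069), APOE (ENSSSCG00000003088) and APOA2 (ENSSSCG00000006355). APOH was not analysed here, and the ID named APOA1 was left out because it is nearly uncounted. All 4 genes with a row were among the 13810 genes tested.

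The series sequenced RNA of 3 pig (Sus scrofa) tissues, namely fat, liver and muscle, in the Berkshire breed and in the Korean native pig, with 1 library for each of the 6 combinations of breed and tissue. The labels name breed and tissue, and no treatment, age, sex, fat depot or muscle. They do not say how many animals the libraries came from, so the 3 libraries of a breed may share an animal, and p-values measure only the spread between these libraries.

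Hepatocytes secrete all of these proteins into blood, and the small intestine secretes several of them. APOB is the structural protein of very low density lipoprotein and low density lipoprotein, and APOC3 slows the clearance of triglyceride-rich particles. APOA2 is a major protein of high density lipoprotein, and APOE is the ligand through which receptors take up remnant particles. APOE differs from the others in that macrophages and adipocytes are also known to make it.

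Levels are given as CPM (gene counts scaled to a common library total), scaled by TMM factors, which adjust for the few very abundant genes that fill much of a liver or muscle library. Libraries held 5897407 to 7912093 counts on genes, so that 3 counts, the limit a count of 0 allows, stood for 0.294 to 0.692 CPM. All intervals cover counting error only. Marker genes followed the tissue labels. The 19 hepatocyte markers counted summed to 256163 and 281342 CPM in the livers of Berkshire and Korean native and to at most 81.4 CPM elsewhere. The 9 skeletal muscle markers summed to 109804 and 184800.1 CPM in muscle and at most 65.4 CPM elsewhere, and the 7 adipocyte markers to 5147 and 3882 CPM in fat and at most 722 CPM elsewhere. Levels are compared between libraries for a given gene and not between genes, because no gene lengths were used. In each pair of values below, Berkshire comes first and Korean native second.

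Liver held the highest level of each of the 4 genes in both breeds, and APOE was the one with a substantial level outside liver. APOE was at 8591 and 5863 CPM in liver, 1049 and 896 CPM in fat and 74.5 and 21.7 CPM in muscle. The order liver, fat, muscle held in both breeds, and the libraries of the 3 tissues did not overlap. APOE took 0.677% and 0.447% of all gene counts in liver, 0.169% and 0.136% in fat and 0.00680% and 0.00159% in muscle.

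APOB, on which very low density particles are built, was at 494 and 671 CPM in liver, from 2469 and 4052 counts. It had 1 count in Korean native fat and 0 counts in the other 3 libraries of fat and muscle. APOC3, the brake on triglyceride clearance, was at 3434 and 1556 CPM in liver. It had 3 and 4 counts in fat and 1 and 6 in muscle, at most 1.38 CPM. APOA2, of high density lipoprotein, was at 291 and 944 CPM in liver, with 2 and 2 counts in fat and 3 and 2 in muscle. For these 3 genes the 95% Poisson intervals of fat and muscle overlapped within each breed, so no order of fat and muscle was detectable at this depth.

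**Figure D1:**
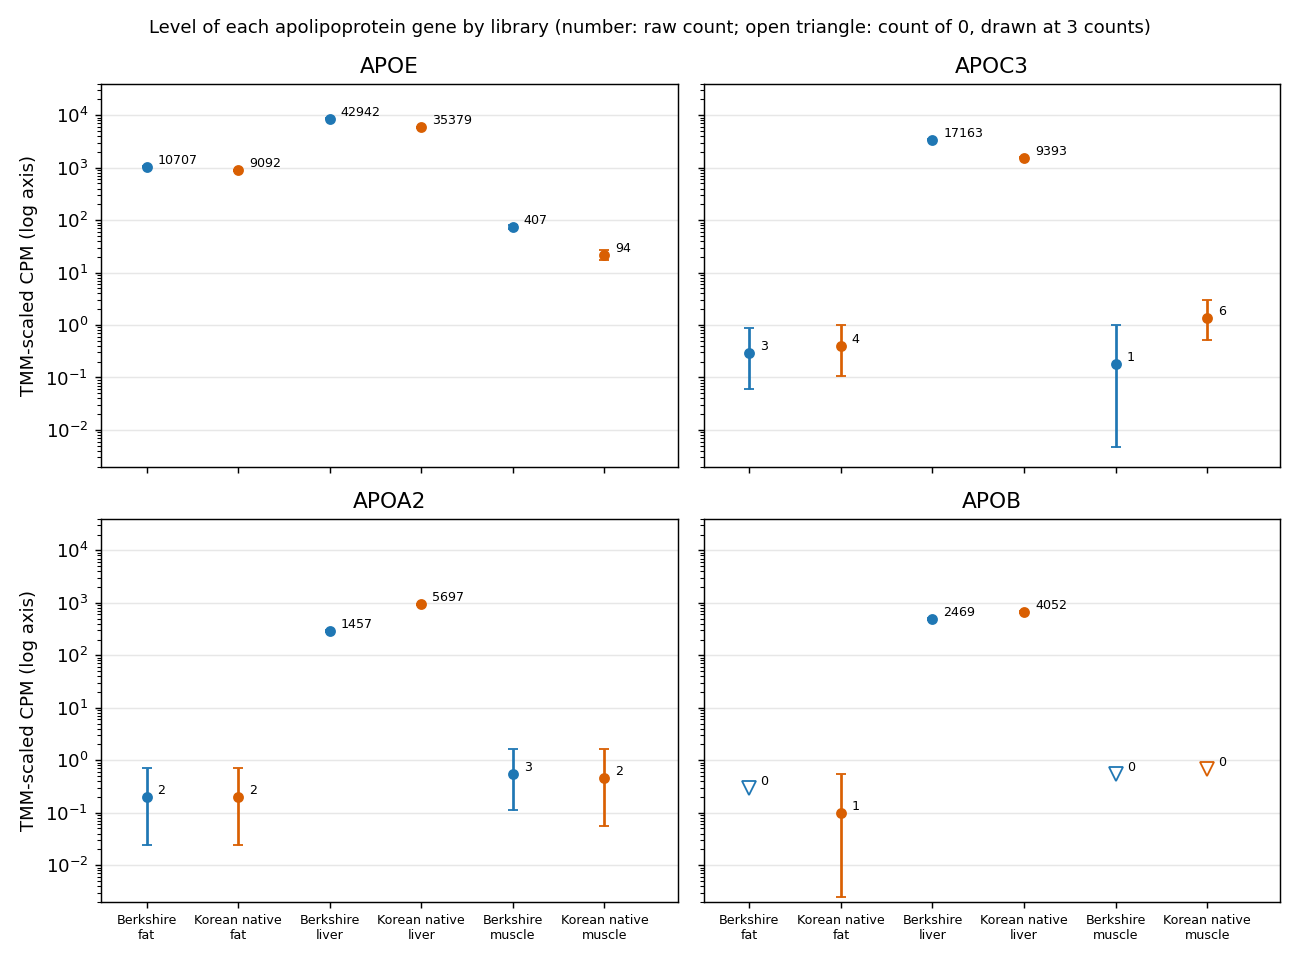
Levels of APOE, APOC3, APOA2 and APOB in each of the 6 libraries, as TMM-scaled CPM on a log axis; points are single libraries (blue Berkshire, orange Korean native), bars are 95% Poisson intervals, printed numbers are raw counts and open triangles are counts of 0 drawn at 3 counts. APOE has 10707 and 9092 counts in fat, where each of the other 3 genes has at most 4.

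Tissues were compared by fitting tissue and breed effects to the 6 libraries together (edgeR quasi-likelihood test, Benjamini-Hochberg adjustment over all genes tested, threshold 0.05), so the 3 tissue comparisons share libraries. All 4 genes were higher in liver than in fat, where 28.7% of all genes were called and 15.2% were higher in liver. All 4 were also higher in liver than in muscle, where 35.9% of all genes were called and 18.6% were higher in liver. APOB, APOC3 and APOA2 passed the filter on low counts through liver alone and so had to differ, and their part of these counts is a description. APOE passes that filter without the liver libraries.

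The mean level of APOE was 7227 ± 1929.5 CPM in liver, 973 ± 108 CPM in fat and 48.1 ± 37.3 CPM in muscle (SD, n = 2 libraries each). The log2 difference between liver and fat was 2.85 ± 0.51 (SE, edgeR adjusted p 0.0065). From pooled counts APOE was 7.30-fold higher in liver than in fat (95% exact interval 7.18 to 7.41). Both breeds showed this direction, with ratios of 8.19 in Berkshire and 6.54 in Korean native. Against muscle the log2 difference of liver was 7.39 ± 0.63 (edgeR adjusted p 2.3e-04), a pooled ratio of 139 (127 to 152).

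APOE was also the 1 gene of the 4 called between muscle and fat, where 16.4% of all genes were called and 6.43% were lower and 9.95% higher in muscle. Its log2 difference, muscle minus fat, was -4.54 ± 0.56 (SE, edgeR adjusted p 0.0028). From counts, fat stood 14.1-fold above muscle in Berkshire (12.7 to 15.6) and 41.3-fold in Korean native (33.7 to 51.2). With total counts in place of TMM factors, the liver and fat difference of APOE was 1.83, a scaling that moved the median of all genes from 0.06 to -0.94, and the call held with an edgeR adjusted p of 0.028.

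For the other 3 genes the fitted log2 difference of liver from fat was 13.09 ± 0.70 for APOB, 12.71 ± 0.98 for APOC3 and 11.36 ± 0.67 for APOA2 (SE). These calls were fixed by the filter, so no p-value is given for them. With so few counts outside liver these fitted values depend on the prior count and the ratio of pooled counts is more direct. APOC3 was 6998 times its fat level in liver (95% exact interval 3396 to 17408) and 3369 times its muscle level (1635 to 8381). APOA2 was 3299 times its fat level (1288 to 12112) and 1271 times its muscle level (544 to 3915). APOB, with 1 count in fat, had a ratio of 12029 (2158 to 475206). Against muscle, with 0 counts in both libraries, the 95% exact interval of APOB began at 1570-fold higher in liver. Taking 3 counts over the 2 muscle libraries gave a ratio of 1931.

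The counts outside liver were set beside those of genes that mark hepatocytes. As a share of the liver level in the same breed, the 19 markers had a median of 0.0189% in Berkshire fat, 0.0260% in Korean native fat, 0.0314% in Berkshire muscle and 0.0393% in Korean native muscle. In Berkshire muscle 2 of the 19 were at 0 counts and in the other 3 libraries none was. ALB, the most abundant plasma protein, had 210, 314, 277 and 228 counts in these libraries.

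APOC3 stood at 0.00856% and 0.0253% of its liver level in fat and at 0.00533% and 0.0889% in muscle. APOA2 stood at 0.0672% and 0.0209% in fat and at 0.188% and 0.0489% in muscle, and APOB at 0.0147% in Korean native fat. These shares lay inside or below the range of the markers, except that of APOA2 in Berkshire muscle, which rests on 3 counts. Whether the counts came from liver RNA was not tested.

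APOE stood at 12.2% and 15.3% of its liver level in fat, above all 19 markers in both breeds. In muscle it stood at 0.867% and 0.370%. The highest marker was ITIH1 at 0.277% in Berkshire fat and F2 (prothrombin) at 0.0785% in Berkshire muscle. In the Korean native libraries CYP2E1 (an ethanol-oxidising enzyme) was at 5.54% in fat and 6.47% in muscle, from 4 and 2 counts, with a liver level of 7.13 CPM in that breed. The other 18 markers reached at most 0.0895% in Korean native fat and 0.0984% in Korean native muscle.

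**Figure D2:**
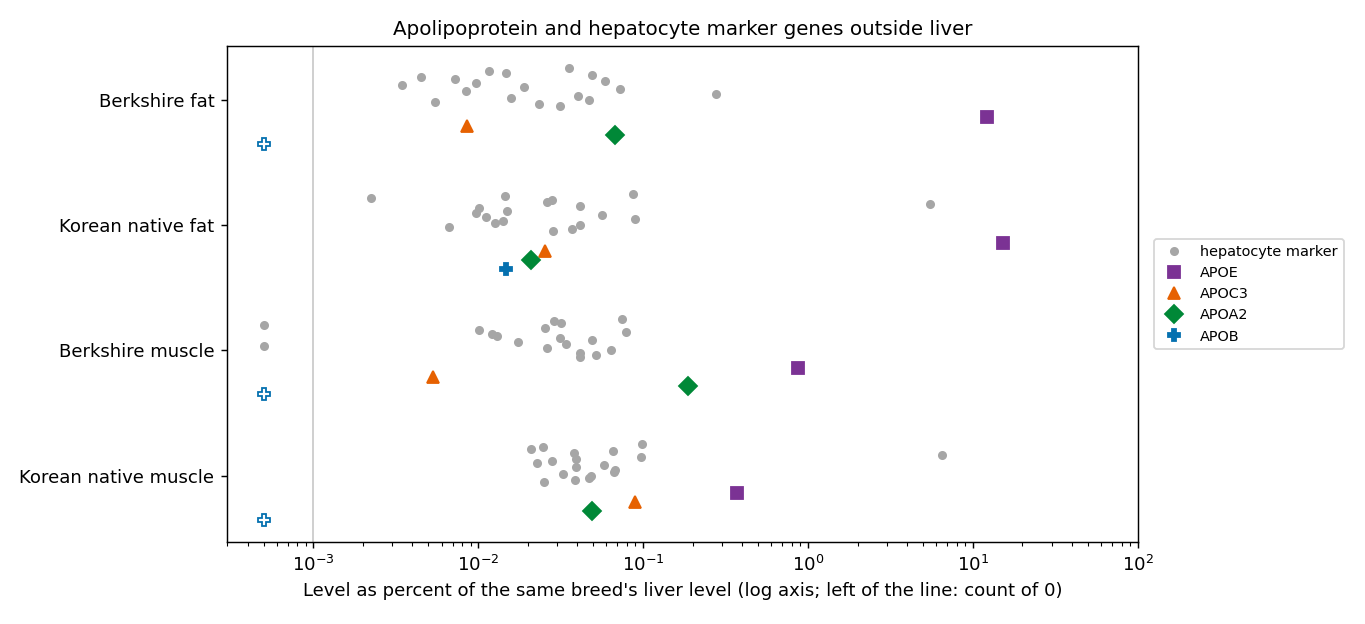
Level in fat and muscle as a percent of the liver level of the same breed, on a log axis, for the 4 apolipoprotein genes (coloured symbols) and 19 hepatocyte markers (grey), with counts of 0 drawn left of the line. APOE in fat, at 12.2% and 15.3%, lies to the right of every grey point, and in Korean native muscle it lies to the right of all but CYP2E1.

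Markers of the other cells that make APOE were counted beside it. Of 17 listed macrophage markers 10 had a row, and they summed to 203 and 392 CPM in fat, 993 and 761 CPM in liver and 143 and 53.5 CPM in muscle. None of the 10 was at 0 in fat, in liver or in Berkshire muscle, and 2 were at 0 in Korean native muscle. Between liver and fat 3 of the 10 were called higher in liver and 7 were not called. Of the 10, 2 passed the filter on low counts through liver alone. In fat the macrophage sum was higher in the Korean native library while APOE was lower there. The adipocyte markers summed to 5147 and 3882 CPM in fat, 84.2 and 66.9 CPM in liver and 722 and 441 CPM in muscle. Between muscle and fat, where APOE was lower in muscle, 2 of 10 macrophage and 6 of 7 adipocyte markers were lower as well. The macrophage count fell without Korean native fat or Korean native muscle and rose without Berkshire fat or Berkshire muscle. The number of all genes called lower in muscle moved in the same direction, except that it fell without Berkshire fat. The macrophage count was 5 with DESeq2, 4 with no filter and 6 with total counts. All genes called lower in muscle, 888 with edgeR, were then 1165, 1194 and 5255. Fewer cells of a type and less RNA per cell cannot be told apart in tissue RNA, and the part of these cells in the APOE level was not tested.

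**Figure D3:**
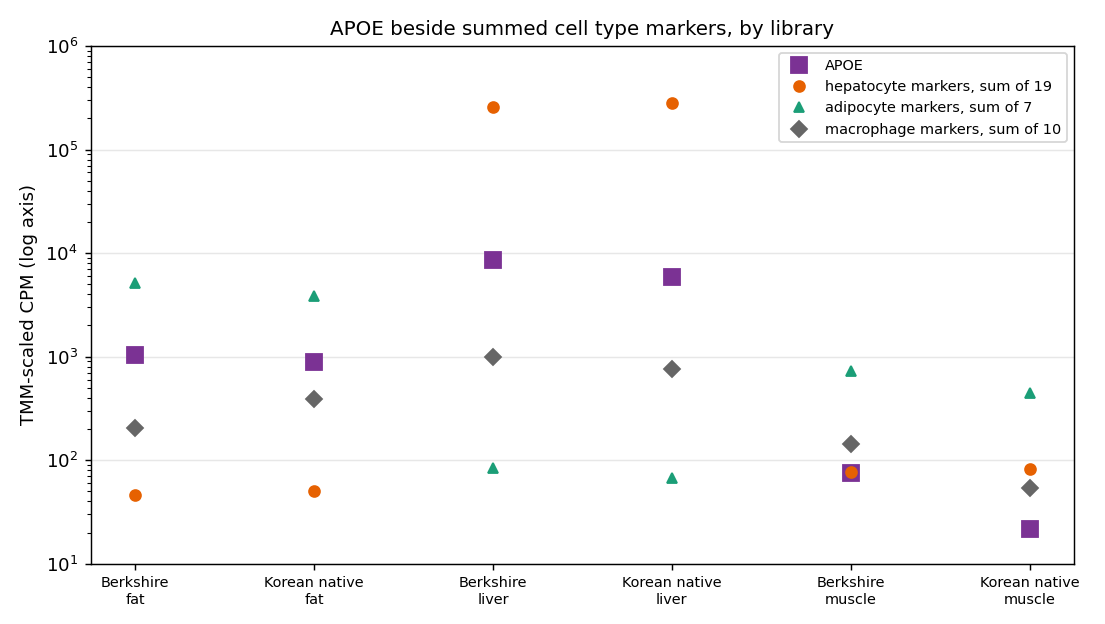
APOE level and summed levels of 19 hepatocyte, 7 adipocyte and 10 macrophage markers in each library, as TMM-scaled CPM on a log axis. APOE is at 1049 and 896 CPM in fat and at 74.5 and 21.7 CPM in muscle, and the hepatocyte sum is 46.2 and 51.0 CPM in fat. Each series is read across libraries. Heights of APOE and the sums are not compared, because the sums hold different numbers of genes and no gene lengths were used.

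The breed comparison asked whether the genes differ between Korean native and Berkshire libraries once tissue is accounted for. None of the 4 was called by edgeR, DESeq2 or limma-voom. Of all genes 0.109% were called by edgeR (0.029% as higher and 0.0797% as lower in Korean native). An unadjusted edgeR p below 0.05 was found for 1 of the 4, APOA2, beside 1103 of all 13810 genes tested. The log2 breed difference, Korean native minus Berkshire, was -0.83 ± 0.40 for APOE, 0.53 ± 0.50 for APOB, -0.21 ± 0.69 for APOC3 and 1.21 ± 0.49 for APOA2 (SE), with edgeR adjusted p of 0.68, 0.84, 0.96 and 0.6. For APOC3 and APOA2 the sign rested on the liver libraries. Without either liver library the difference was 1.44 for APOC3 and -0.12 for APOA2.

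The breeds meet within a tissue as 1 library against 1, so the values below have no test and the spread between animals is unknown. In liver the 4 genes did not shift in the same direction. APOA2 was at 291 and 944 CPM, a Korean native to Berkshire ratio of 3.24 (95% exact interval 3.06 to 3.43). APOB was at 494 and 671 CPM, a ratio of 1.36 (1.29 to 1.43). APOE was at 8591 and 5863 CPM, 1.47-fold lower in the Korean native library (1.44 to 1.49). APOC3 was at 3434 and 1556 CPM, 2.21-fold lower (2.15 to 2.26). APOA2 and APOC3 were the 2 genes past 2-fold, in opposite directions. Of genes with at least 10 CPM in either liver library, 11.3% were 2-fold or more apart, 5.76% with the higher level in Korean native and 5.53% with the lower.

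The same contrast can be read within each library, where scaling has no part. Berkshire liver held 11.8 counts of APOC3 per count of APOA2 (11.2 to 12.4), and Korean native liver held 1.65 (1.60 to 1.70). APOE had 29.5 counts per count of APOA2 in Berkshire (28.0 to 31.1) and 6.21 in Korean native liver (6.04 to 6.39). APOB had 0.144 counts per count of APOC3 in Berkshire (0.138 to 0.150) and 0.431 in Korean native liver (0.416 to 0.448). The intervals of the 2 livers did not overlap for any of these pairs. Such a ratio shows unequal change of 2 genes and not which of them changed.

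Most hepatocyte markers lay closer together between the livers. On the log2 scale, Korean native minus Berkshire, 18 of the 19 were between -0.78 and 0.81, the median of all 19 was -0.06, and CYP2E1 was at -9.51. APOA2 was at 1.69 and APOC3 at -1.14 on the same scale. Red blood cell markers, 4 with a row, summed to 249 and 2135 CPM in the livers and the macrophage markers to 993 and 761 CPM. The part of blood or of other cells in the liver values was not tested.

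**Figure D4:**
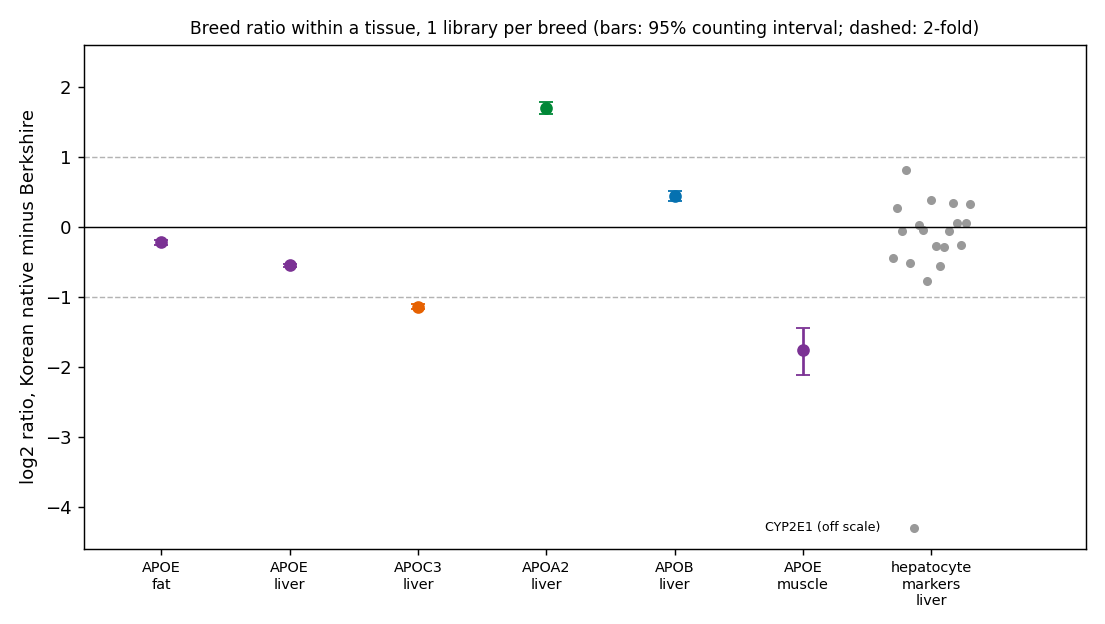
Log2 ratio of Korean native to Berkshire within a tissue, 1 library per breed, for each apolipoprotein gene with at least 10 CPM, with 95% exact counting intervals, and for 19 hepatocyte markers in liver (grey, CYP2E1 drawn at the edge); dashed lines mark 2-fold. APOA2 in liver, at 1.69, lies above all grey points and APOC3, at -1.14, below all but CYP2E1.

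In fat and muscle APOE alone reached 10 CPM. In fat it was at 1049 and 896 CPM, 1.17-fold lower in the Korean native library (1.14 to 1.2), where 7.57% of genes were 2-fold or more apart, 4.15% higher and 3.42% lower in Korean native. In muscle it was at 74.5 and 21.7 CPM, 3.44-fold lower (2.74 to 4.35), where 20.3% of genes were 2-fold or more apart, 11% higher and 9.34% lower in Korean native. APOE was thus the lower of the pair in the Korean native library of all 3 tissues. In muscle the macrophage sum was 143 and 53.5 CPM, and 4 of the 4 macrophage markers at 10 CPM or more were at least 2-fold lower in the Korean native library. The adipocyte sum was 722 and 441 CPM, with 4 of 6 markers at least 2-fold lower. Their part in the APOE value was not tested.

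Genes with the most similar pattern were sought among 7352 genes with a symbol, by the root mean square difference of log2 CPM over the 6 libraries after centring each gene on its own mean. Nearest to APOB were F9 (coagulation factor IX, 0.18), UPB1 (an enzyme of pyrimidine breakdown, 0.20) and TTR (transthyretin, 0.23). Nearest to APOC3 were FGB (a fibrinogen chain, 0.43), ARG1 (the urea cycle arginase, 0.55) and ITIH2 (0.55). Nearest to APOA2 were AFM (afamin, a plasma protein of the albumin family, 0.26), ABCC2 (0.34) and ABCB11 (0.39), the latter pair being transporters of the bile canaliculus. AFM was at 355 and 1180.3 CPM in liver and ABCB11 at 357 and 731 CPM, both higher in the Korean native library as APOA2 was. They were picked for likeness to APOA2 over these same libraries, so this shared direction is a description only. Nearest to APOE were PGLYRP2 (a secreted amidase, 0.49), ITIH3 (0.54) and GYS2 (liver glycogen synthase, 0.62). ITIH3 was at 1493 and 1388 CPM in liver, 462 and 123 CPM in fat and 21.0 and 5.77 CPM in muscle. With a prior count of 0.5 in place of 2, 1 of the 3 genes was shared for APOC3 and for APOA2, so these neighbours depend on how low counts are treated.

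By the same measure APOB and APOA2 were 0.75 apart, APOB and APOC3 0.83, and APOC3 and APOA2 1.34. APOE was 3.28 from APOB, 3.82 from APOC3 and 3.15 from APOA2. These distances describe 6 libraries that the genes share.

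Genes next to the apolipoprotein genes on the chromosome were taken from the gene order of the RefSeq assembly Sscrofa11.1. No row was found for APOA4 beside APOC3, for APOC4 and APOC2 beside APOE, or for any neighbour of APOB looked up. Neighbours with a row, APOA1 left aside, did not share the tissue pattern of the apolipoprotein genes in most cases. TOMM40 (a mitochondrial import channel), beside APOE, was between 14.3 and 39.7 CPM in all 6 libraries. SIK3 (a kinase), near APOC3, was between 40.7 and 139 CPM. Beside APOA2, TOMM40L was between 16.6 and 30.0 CPM and FCER1G (an Fc receptor chain of myeloid cells) between 9.0 and 39.8 CPM. The next gene, NR1I3 (a nuclear receptor of hepatocytes), was at 58.0 and 61.8 CPM in liver, 3.92 and 3.25 CPM in fat and 1.65 and 10.1 CPM in muscle. In liver these neighbours of APOA2 were close between breeds, with TOMM40L at 27.8 and 26.0 CPM and FCER1G at 39.8 and 38.3 CPM.

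Other apolipoprotein genes were counted in 5 of 16 listed cases. Between liver and fat 3 of the 5 were higher and 1 lower in liver, with a median log2 difference of 3.66 beside 0.06 for all genes. Of the 5, APOF passed the filter on low counts through liver alone and had to be higher there. CLU (clusterin, an extracellular chaperone also called apolipoprotein J) was at 4427 and 2106 CPM in liver, 88.9 and 148 CPM in fat and 107 and 64.8 CPM in muscle. Its log2 difference between liver and fat was 4.68 ± 0.59 (SE, edgeR adjusted p 0.0015). APOF, an inhibitor of lipid transfer, was at 306 and 418 CPM in liver and at most 0.490 CPM elsewhere. APOM, a carrier of sphingosine 1-phosphate named here after its values were seen, was at 54.8 and 50.0 CPM in liver and 3.75 to 9.23 CPM elsewhere.

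APOD, a lipocalin unrelated in sequence to the exchangeable apolipoproteins, had the opposite pattern. It was at 1.2 and 0.663 CPM in liver, 18.4 and 65.6 CPM in fat and 87.9 and 28.1 CPM in muscle. Its log2 difference between liver and fat was -5.51 ± 1.00 (SE, edgeR adjusted p 0.007). Between muscle and fat none of the 5 was called by edgeR, DESeq2 or limma-voom. An unadjusted edgeR p below 0.05 was found for 2 of the 5, beside 4684 of all 13810 genes tested.

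Of 20 genes of lipoprotein assembly and secretion 10 were tested. Between liver and fat 5 were higher and 1 lower in liver, with a median log2 difference of 0.99. MTTP, the protein that loads lipid onto APOB, was at 434 and 557 CPM in liver and at most 0.231 CPM elsewhere, the same tissue pattern as APOB. CIDEB, which takes part in lipidating very low density particles, was at 207 and 221 CPM in liver and at most 1.08 CPM elsewhere. Both passed the filter through liver alone, so they had to be higher there, and both were named after their values were seen. The most counted genes of the list were less tied to liver. PDIA4 (a disulfide isomerase of the endoplasmic reticulum) was at 566 ± 168 CPM in liver, 129 ± 10.3 in fat and 90.0 ± 27.1 in muscle (SD, n = 2). SAR1B, the GTPase of vesicles that export large lipid particles, was at 353 ± 1.69, 43.9 ± 2.64 and 294 ± 54.0 CPM, and was the 1 gene of the list higher in muscle than in fat. MIA3, a cargo receptor for bulky secreted proteins, was at 354 ± 123, 146 ± 9.67 and 164 ± 2.50 CPM. The MIA3 call between liver and fat was lost with total counts and without Berkshire fat, Berkshire liver or Korean native fat.

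Receptors and uptake genes were tested in 17 of 23 cases, and 2 of the 17 passed the filter through liver alone. Between liver and fat 4 were higher and 3 lower in liver (median log2 difference 0.13), beside 15.2% and 13.5% of all genes. Between muscle and fat 7 were lower and 1 higher in muscle (median -1.52, beside -0.05 for all genes). Fewer than these 7 were called without Korean native muscle, Korean native fat or Berkshire fat. In each of these runs fewer of all genes were called lower in muscle too. The gene higher in muscle was VLDLR, a receptor that binds APOE. VLDLR was at 189 and 338 CPM in muscle, 95.8 and 58.3 CPM in fat and 30.4 and 21.4 CPM in liver, the reverse of the APOE order. Its log2 difference was 1.81 ± 0.45 between muscle and fat and -1.57 ± 0.44 between liver and fat (SE, edgeR adjusted p 0.037 for each). The VLDLR call between muscle and fat was lost with total counts and without either fat library or Korean native muscle, and the call between liver and fat without Berkshire fat or either liver library.

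STAB1, a scavenger receptor of sinusoidal endothelium and macrophages, was at 186 and 238 CPM in fat, 183 and 142 CPM in liver and 95.2 and 66.2 CPM in muscle. It was lower in muscle than in fat (log2 difference -1.42 ± 0.35, edgeR adjusted p 0.037), a call lost without either fat library or Korean native muscle. LRP6, a co-receptor of Wnt signalling, was at 210.4 and 200.1 CPM in fat, 67.2 and 96.6 CPM in liver and 222 and 80.3 CPM in muscle, and was called in neither comparison with fat.

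Plasma lipases and lipid transfer genes were tested in 13 of 18 cases, with 5 higher and 1 lower in liver than in fat (median log2 difference 0.95), and 5 lower and 0 higher in muscle than in fat. Of the 13, 1 passed the filter through liver alone. Fewer than these 5 were called lower in muscle without Korean native fat or Korean native muscle, where fewer of all genes were too. LIPA, the lysosomal lipase that digests lipoprotein lipid after uptake, was at 378 and 268 CPM in liver, 247 and 256 CPM in fat and 49.1 and 20.1 CPM in muscle. PON3, a lactonase carried on high density lipoprotein, was at 352 and 195, 131 and 119 and 24.7 and 4.61 CPM in the same order. Both were lower in muscle than in fat, with log2 differences of -2.98 ± 0.43 for LIPA and -3.40 ± 0.57 for PON3 (SE, edgeR adjusted p 0.0055 and 0.01), and neither was called between liver and fat.

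Genes of cholesterol efflux and sterol handling were tested in 13 of 15 cases, with 6 higher and 1 lower in liver than in fat (median log2 difference 0.07), and 2 lower and 0 higher in muscle than in fat. Of the 6 higher in liver, 3 (CYP7A1, ABCG8 and NPC1L1) passed the filter through liver alone and had to be higher there. CYP7A1, the rate-limiting enzyme of bile acid synthesis, was at 339.9 and 452 CPM in liver and at most 2.96 CPM elsewhere. NPC2, which passes cholesterol on inside the lysosome, was at 104 and 118 CPM in fat, 47.8 and 56.5 CPM in liver and 38.4 and 27.2 CPM in muscle. It was the gene lower in liver, a call lost without any 1 of the 4 fat and liver libraries. Its partner NPC1 was at 38.7 and 48.3, 23.6 and 61.8 and 13.4 and 9.23 CPM in the same order. The 2 genes lower in muscle were NPC2 and NPC1, and both calls were lost without Korean native fat or Korean native muscle, that of NPC1 also without Berkshire fat.

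Transcription factors and nuclear receptors that act on apolipoprotein genes were tested in 28 of 35 cases, with 17 higher and 2 lower in liver than in fat (median log2 difference 1.64), and 4 higher and 3 lower in muscle than in fat. HNF4A, CREB3L3 and 6 more of the 28 passed the filter through liver alone and had to be higher there. Fewer than these 4 were higher in muscle without Korean native fat or Korean native muscle, and more than these 3 were lower without either liver library. The numbers of all genes called higher and lower in muscle moved in the same directions. HNF4A, a nuclear receptor of hepatocytes, was at 949 and 811 CPM in liver and at most 0.394 CPM elsewhere. CREB3L3, a factor of hepatic triglyceride metabolism, was at 276 and 317 CPM in liver and at most 0.231 CPM elsewhere. MLXIPL, the carbohydrate response factor, was at 286 and 260.2 CPM in liver, 226 and 174 CPM in fat and 26.9 and 13.4 CPM in muscle, the order also seen for APOE. Its log2 difference between muscle and fat was -3.35 ± 0.38 (SE, edgeR adjusted p 0.0019), and liver and fat were not called apart. In the 2 livers HNF4A, CREB3L3 and MLXIPL each lay within 2-fold, as did all 25 listed regulators with at least 10 CPM there.

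**Figure D5:**
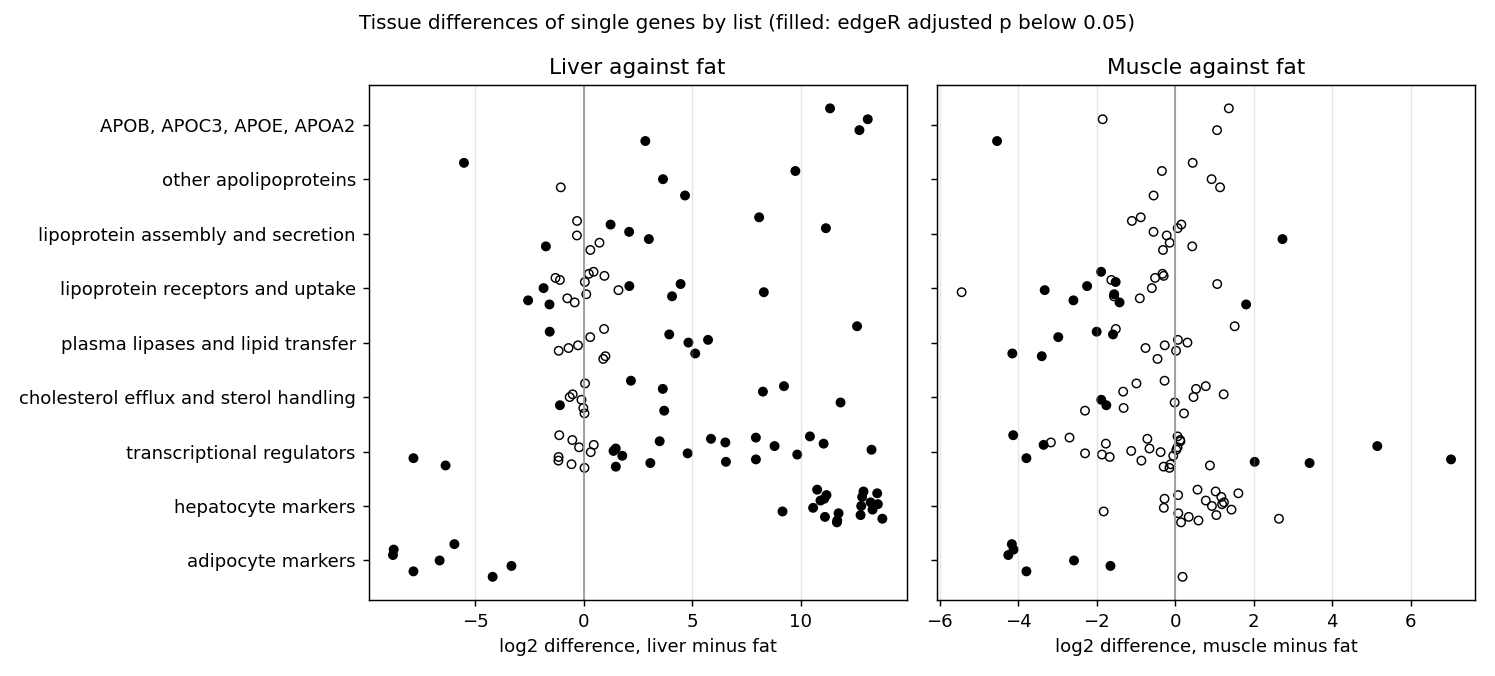
Log2 difference of each tested gene between liver and fat (left) and between muscle and fat (right), by gene list, with filled points for an edgeR adjusted p below 0.05. APOE is at 2.85 on the left with APOB, APOC3 and APOA2 between 11.36 and 13.09, and on the right APOE, at -4.54, is the 1 filled point of its row.

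The counts of these lists stand beside shares over all genes of 15.2% higher and 13.5% lower in liver than in fat. Between muscle and fat these shares were 9.95% higher and 6.43% lower in muscle. The list counts depend on scaling and on single libraries. Without Berkshire muscle, more receptors and regulators were lower in liver than in fat, as were more of all genes. The 1 gene lower in liver was lost without Korean native fat in the assembly and the lipase lists, and without Berkshire liver in the assembly list. Without Korean native fat 1 of the other apolipoproteins was higher in muscle than in fat. Total counts moved the median of all genes to -0.94 (liver minus fat) and -0.98 (muscle minus fat). Of all 13810 genes, 1158 were then higher and 5797 lower in liver, and 765 higher and 5255 lower in muscle. With that scaling, receptors became 3 higher and 7 lower in liver, and 0 higher and 14 lower in muscle. Regulators became 13 higher and 9 lower in liver. The other apolipoproteins became 3 higher and 2 lower in liver.

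In the breed comparison over tissues none of the 86 genes of these 6 lists was called by edgeR, DESeq2 or limma-voom. An unadjusted edgeR p below 0.05 was found for 6 of the 86, beside 1103 of all 13810 genes tested. Within liver, of listed genes with at least 10 CPM, 3 of 16 receptor and 3 of 10 sterol genes were 2-fold or more higher in the Korean native library and 0 lower. Among the other lists 0 of 3 apolipoprotein genes were higher and 1 lower (CLU), 0 of 13 lipase and transfer genes were higher and 1 lower (PLA2G7, a plasma phospholipase), and 0 of 9 assembly genes and 0 of 25 regulators were 2-fold apart. Over all genes in liver 5.76% were higher and 5.53% lower by 2-fold. Among the sterol genes were SOAT2, which esterifies cholesterol for packing into APOB particles, at 12.2 and 52.5 CPM, and ABCA1, which loads cholesterol onto high density lipoprotein, at 29.4 and 88.3 CPM. PLA2G7, SOAT2 and ABCA1 were named after their values were seen.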

How the data were processed

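RNA libraries from frozen tissue were made with an Illumina TruSeq kit, per the labels' protocols. The deposited values are whole-number counts of reads per Ensembl pig gene, 1 file per library, which the authors made with TopHat, HTSeq 0.5.3p3 and the assembly Sscrofa10.2, per the submitters' processing notes. No annotation release, counting mode or strand setting was given in the sources used here. Reads from genes that overlap, on either strand, cannot be assigned with certainty. The 5 closing entries of each file that name no gene were left out of library sizes; reads outside any gene made up 45.9% to 52.5% of all entries and reads with no unique position 14.1% to 20.8%.

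Gene symbols came from a table of Ensembl IDs. Gene order came from the RefSeq gene table of Sscrofa11.1, and no coordinates, sequences or gene lengths were used. Counts were tested with edgeR 4.0.16 in R 4.3.3 (filterByExpr, TMM factors, quasi-likelihood F test, two-sided, Benjamini-Hochberg threshold 0.05) in an additive model of tissue and breed, which leaves 2 residual degrees of freedom. The biological coefficient of variation was 29.5%. Standard errors were taken as the log2 difference divided by the square root of F. Log2 CPM used a prior count of 2. DESeq2 1.42.0, limma-voom (limma 3.58.1), other scalings, no filter, other models and leaving out each library were the alternatives. Ratios of counts have exact binomial and levels exact Poisson 95% intervals.

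The fit was tested on simulated counts of liver against fat over 13372 genes. At a simulated 2-fold change it recovered 5 of 81 genes, at 4-fold 46 of 57 and at 8-fold 62 of 62. It also called 3 unchanged genes. Only these genes, none of low mean level, were changed, every gene had the same spread and no breed effect was simulated. In the real comparison of liver and fat 28.7% of genes were called, so these recovery rates do not carry over to it. The genes named by rule are the members, the 3 genes of highest mean CPM in each list and the 3 genes most like each member. Cell type marker lists are given by their sums, without naming those genes one by one, and 1 rule-named gene of the other lists is not reported here. Other genes are named after their values were seen. The members and the gene lists were chosen with earlier results of these data known.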

Additional observations from a re-analysis of the deposited data

Results flagged for a closer look

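APOD differed in opposite directions between the breeds in fat and in muscle. The log2 difference, Korean native minus Berkshire, was 1.82 in fat and -1.63 in muscle. Each value compares 1 library with 1 library, and the difference between the tissues was not tested.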

How the results depend on the processing

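The number of apolipoprotein genes called was 4 between liver and fat, 1 between muscle and fat, 4 between liver and muscle and 0 between breeds in each alternative run. The liver calls of APOB, APOC3 and APOA2 are fixed by the filter on low counts, so the 78 single tests of them under the alternatives say nothing about stability. Of the other single tests of the 4 genes, 79 kept their direction and their side of the threshold and 5 reversed, all in the breed comparison, where no call was made. The breed difference of APOC3 was 0.11 with DESeq2 and ranged from -0.85 to 1.44 when 1 library was left out, and that of APOA2 ranged from -0.12 to 1.5. The genes called between liver and fat, 3959, became 6955 with total counts and ranged from 2452 to 4823 with 1 library left out. Those between muscle and fat, 2262, became 6020 and ranged from 866 to 2652. Those between breeds, 15, became 94 with DESeq2, 87 with no filter and 0 with no tissue term, and ranged from 16 to 83. In the model with no tissue term 114 genes had an unadjusted edgeR p below 0.05. The share of calls that were higher in liver or in muscle than in fat was 53.0% and 60.7% with TMM factors and 16.6% and 12.7% with total counts. Within a tissue, total counts gave a breed difference of -0.31 for APOE in fat, -0.60 for APOE in liver and -1.19 for APOC3 in liver. Of the single tests of other named genes, 350 kept their call, 27 lost it and none reversed, and 103 list counts moved by over 1.5 times while 1121 did not. The cause was not tested. The alternatives for the most similar genes were chosen after seeing the data, and 3 of 12 comparisons there moved, all of them for APOC3 or APOA2. The labels give no replicate numbers, and each breed and tissue has 1 library, so libraries were matched only through the breed term of the tissue comparisons and the tissue term of the breed comparison. Leaving out the breed term moved the numbers of genes called in the tissue comparisons by less than 1.5 times.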
